A study of Mus musculus with 33 samples.

Results

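The comparison set mouse livers 3 days (d) after a partial hepatectomy against livers at 0 d, over all genes with a measurable signal. Its members were the 3 arrays titled 3d and the 3 titled 0d, and each gene was read from its brightest probe set on average over the 33 arrays of the series. Of 18193 genes with a probe set that carries a single symbol, 13642 reached a log2 value of 5 on at least 3 arrays and were tested. The label given to the comparison calls 3 d the mitotic peak. The arrays did not separate 3 d from 2 d in that respect, as shown with the mitotic genes, and the groups are called 3 d and 0 d here.

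The study followed mouse liver through 11 times from 0 d to 14 d after removal of 70% of the organ, with 3 biological replicates at each time, on Affymetrix mouse expression arrays. The 0 d group carries the label of a 0-day 70% partial hepatectomy, and the 3 d group was taken 3 days after the same operation. Besides these 6 arrays the 3 arrays at 2 d and the 3 at 4 d were used as neighbours in time, and all 33 entered the fit. The labels name no strain, sex, age, genotype or agent other than the operation, and no sham-operated group, so tissue loss and surgery cannot be told apart. They do not say whether each RNA came from a single animal, and p-values measure only the spread between these samples. A description field speaks of cells from fat, whereas the tissue and source fields give liver. Albumin (Alb) stood at 14.69, 14.71 and 14.68 at 0 d and at 14.76, 14.80 and 14.80 at 3 d on the log2 scale, and the adipocyte hormone Adipoq at 2.82, 2.97 and 5.38 and at 2.97, 2.97 and 3.22. The first is the most abundant secreted product of hepatocytes, and the second lay near the floor of the arrays on 5 of the 6.

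Hepatocytes of the adult liver rest outside the cell cycle and re-enter it after tissue loss, copying their DNA before they enter mitosis. In mitosis cyclin-dependent kinase 1 and its cyclins, with the Aurora and Polo kinases, drive chromosome condensation, spindle assembly and, after the anaphase-promoting complex has destroyed cyclins and securin, the division of the cell body. The liver's resident macrophages, the Kupffer cells, and the metabolic enzymes of hepatocytes are followed beside these genes because regrowth takes place in an organ that has to keep working.

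Values below are log2 signals from the deposited table, listed in the order of replicates 1, 2 and 3, and differences are 3 d minus 0 d with the standard error (SE) of the limma fit. A gene is called higher or lower where its limma p-value, adjusted by Benjamini-Hochberg over the 13642 genes, is under 0.05. On the 6 arrays the median log2 value lay between 5.32 and 5.36, and between 12569 and 12803 of the genes tested stood at 5 or more. Each array correlated with its group at 0.985 or more. Of the genes tested 2888 (21.2%) were called, 1398 (10.2%) higher and 1490 (10.9%) lower at 3 d, with 305 (2.24%) higher and 82 (0.601%) lower by 2-fold or more. Without 3 d replicate 2 the count fell to 1893, with 890 higher. The median difference of all genes was -0.025.

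The genes of mitosis rose as a group. Over 5 lists that follow mitosis from entry to the division of the cell body, 100 of 119 genes tested were higher at 3 d, against 10.2% of all genes, and 1 was lower. Their median difference was 1.56, and on 103 of the 119 every 3 d array lay above every 0 d array, against 18.3% of all genes. The mean log2 level of the 119 genes was 5.80, 5.84 and 6.03 on the 0 d arrays and 7.6, 7.58 and 7.39 on the 3 d arrays. In RNA of whole liver, more cells in division and more of these RNAs in each such cell cannot be told apart. With each of the 6 arrays left out in turn, 89 of the 100 stayed higher in every fit.

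The regulatory sequences of such genes are known to carry a short element, the cell cycle homology region, and boxes for the factor NF-Y, which are bound by complexes that hold these genes silent in resting cells and drive them in dividing ones. RefSeq promoters (build GRCm38.p6, 250 bases before to 50 after the start) were found for 99 of the 119 genes, 111 promoters in all. The letters TTTGAA, the usual form of the first element, stood on either strand of 61 of them (55%), against 17.9% of the 32851 promoters of the same length in the table. CCAAT, the NF-Y box, stood on either strand of 74 (66.7%), against 37.4%, and both motifs were found in 47 (42.3%), against 6.95%. Matches can overlap at their ends and were counted separately, and a match is a description of the letters and not of a bound site. The following 5 promoters belong to the mitotic genes with the largest differences at 3 d that hold both motifs, and are shown so that their arrangement can be compared. Each is the 250 bases before the start, read 5′ to 3′ on the gene's strand, and capitals mark TTTGAA or, for the other strand, TTCAAA, and likewise the box CCAAT or, for the other strand, ATTGG. They lie at chr9:70421555-70421804 (minus strand, Ccnb2), chr7:135716380-135716629 (minus, Mki67), chr2:164769679-164769928 (plus, Ube2c), chr3:159495183-159495432 (plus, Depdc1a) and chr14:46760291-46760540 (plus, Cdkn3).
Ccnb2: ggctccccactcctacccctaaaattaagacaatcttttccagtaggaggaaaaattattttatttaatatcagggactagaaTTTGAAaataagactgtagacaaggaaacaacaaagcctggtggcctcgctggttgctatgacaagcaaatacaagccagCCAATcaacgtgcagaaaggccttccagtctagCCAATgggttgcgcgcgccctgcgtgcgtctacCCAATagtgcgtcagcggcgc
Mki67: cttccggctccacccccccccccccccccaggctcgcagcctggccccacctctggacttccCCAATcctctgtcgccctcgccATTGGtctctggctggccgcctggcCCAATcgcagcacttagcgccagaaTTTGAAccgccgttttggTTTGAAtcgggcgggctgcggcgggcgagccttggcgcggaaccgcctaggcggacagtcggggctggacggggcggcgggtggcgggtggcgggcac
Ube2c: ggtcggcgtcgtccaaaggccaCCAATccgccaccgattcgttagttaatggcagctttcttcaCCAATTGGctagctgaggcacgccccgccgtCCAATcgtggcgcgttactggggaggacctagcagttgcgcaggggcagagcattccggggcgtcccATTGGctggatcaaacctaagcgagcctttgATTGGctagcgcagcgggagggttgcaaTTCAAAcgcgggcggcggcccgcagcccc
Depdc1a: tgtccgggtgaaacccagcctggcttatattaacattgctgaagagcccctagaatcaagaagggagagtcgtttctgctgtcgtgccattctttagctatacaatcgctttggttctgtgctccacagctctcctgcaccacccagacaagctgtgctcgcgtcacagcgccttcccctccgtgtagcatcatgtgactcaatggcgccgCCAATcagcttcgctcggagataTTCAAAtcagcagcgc
Cdkn3: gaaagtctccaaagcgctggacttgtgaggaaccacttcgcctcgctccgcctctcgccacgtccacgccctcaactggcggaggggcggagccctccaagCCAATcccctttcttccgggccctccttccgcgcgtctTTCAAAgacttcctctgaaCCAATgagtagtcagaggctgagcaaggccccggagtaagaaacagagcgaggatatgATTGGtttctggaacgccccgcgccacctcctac
The Depdc1a stretch holds 1 match of each motif, TTCAAA starting 16 bases and CCAAT 39 bases before the start. Ube2c has 6 matches of the CCAAT motif, of which a CCAAT and an ATTGG overlap as CCAATTGG, and Mki67 has TTTGAA at 116 and again at 98 bases before the start. Ccnb2 carries 3 CCAAT boxes at 87, 54 and 21 bases before the start and TTTGAA at 167 bases before it. The 50 bases after the start were counted but are not shown. There Ccnb2 has a further TTTGAA from base 5 and Cdkn3 a further CCAAT from base 10.

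Among the kinases and cyclins of mitotic entry, 23 of 26 genes tested were higher, 17 of them by 2-fold or more, and none was lower by limma, also at an unadjusted p under 0.05 (0 genes). Ccnb2, a B-type cyclin that activates Cdk1, stood at 5.04, 5.31 and 5.93 at 0 d and at 9.78, 9.49 and 9.63 at 3 d. Its difference was 4.21 (SE 0.62, limma adjusted p = 2.9e-05), or 18.5-fold, and the groups lay far apart. Cdk1 itself stood at 6.87, 6.78 and 7.52 against 10.06, 10.18 and 9.84, a difference of 2.97 (SE 0.38). Cyclin A2 (Ccna2), which acts in S phase and early mitosis, rose by 3.46 (SE 0.48) from 5.75, 5.91 and 6.54 to 9.58, 9.68 and 9.31. The kinase genes Aurka, needed at the spindle poles, and Plk1, needed from entry to exit, rose by 3.09 (SE 0.41) and 2.79 (SE 0.41). Bub1, a kinase of the spindle checkpoint, rose by 3.25 (SE 0.40), and the mitotic kinase gene Pbk by 3.91 (SE 0.43). The members not called were Ccnf at 0.11, Foxm1 at 0.08 and Wee1, whose kinase holds Cdk1 inactive, at -0.22. The B-type cyclin gene Ccnb1 had no probe set with a single symbol, and Mybl2 missed the filter, so neither was tested. Foxm1, a transcription factor of mitotic genes, was read from its brightest probe set, and another of its probe sets gave 1.16 and was called higher.

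**Figure D1:**
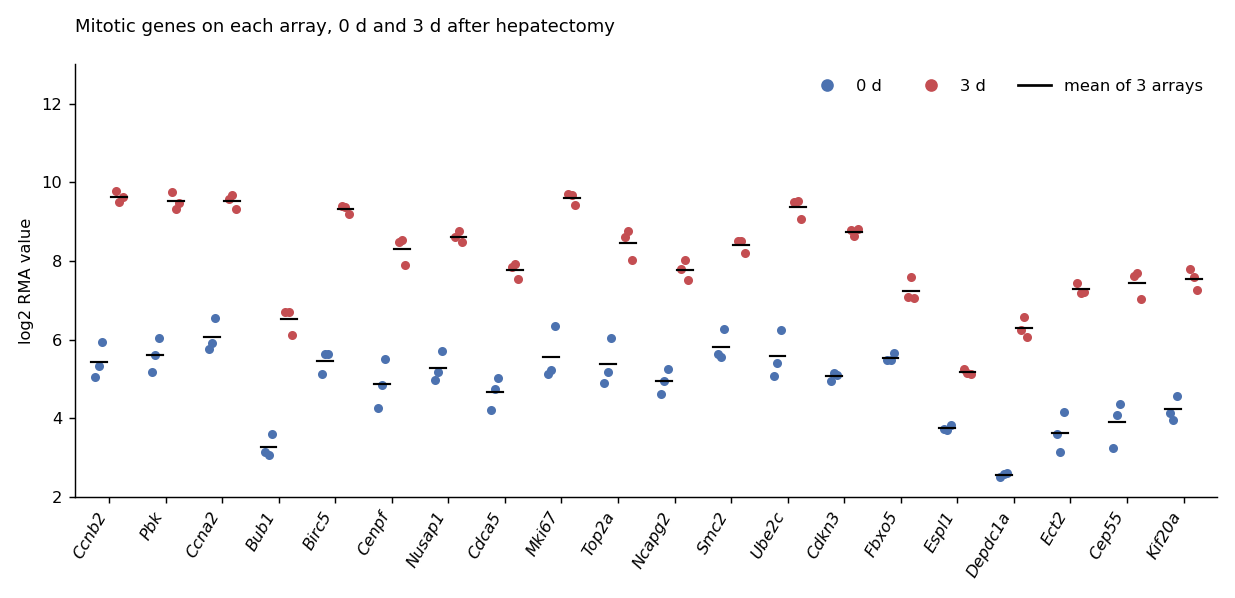
Log2 signal (vertical axis) of 20 mitotic genes, set along the horizontal axis by role from entry to cytokinesis. Blue dots are the 3 arrays at 0 d and red dots the 3 at 3 d, and bars mark the mean of 3. In all 20 genes the red dots lie above the blue ones without overlap, as for Ccnb2 with 5.04 to 5.93 at 0 d and 9.49 to 9.78 at 3 d.

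Genes of the spindle and the kinetochore, the structure that ties chromosomes to spindle fibres, were higher for 39 of 44 members tested, with a median difference of 1.62. Birc5 (survivin), a subunit of the chromosomal passenger complex, stood at 5.13, 5.63 and 5.64 at 0 d and at 9.39, 9.36 and 9.19 at 3 d, a difference of 3.85 (SE 0.42). Cenpf, a kinetochore protein, stood at 4.25, 4.85 and 5.51 against 8.49, 8.53 and 7.90. The microtubule-binding Nusap1 rose by 3.32 (SE 0.50) and the cohesin protector Cdca5 by 3.11 (SE 0.37). These genes were at the low end of the arrays at 0 d and at middle levels at 3 d. Of 18 tubulin and cytoskeleton genes 11 were higher (7 without 0 d replicate 1), against 10.2% of all genes. The microtubule-destabilizing Stmn1 led them with 7.88, 7.95 and 8.55 against 11.70, 11.41 and 11.50.

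All 12 genes of chromosome condensation and topology were higher, with differences from 0.35 to 4.04. Mki67, whose protein coats mitotic chromosomes and is the usual marker of proliferation, stood at 5.13, 5.23 and 6.34 at 0 d and at 9.71, 9.67 and 9.43 at 3 d, 16.4-fold higher. Top2a, the topoisomerase that untangles sister chromatids, rose by 3.09 (SE 0.37), the condensin subunit Ncapg2 by 2.84 (SE 0.33) and the condensin core Smc2 by 2.59 (SE 0.27). Esco2, which acetylates cohesin so that sister chromatids stay paired, was among the 12 largest rises. Its 0 d values lay near the floor of the arrays, where differences are compressed. It stood at 2.73, 2.49 and 3.44 against 7.65, 7.27 and 7.11, a difference of 4.46 (SE 0.41).

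Anaphase and mitotic exit gave a mixed list: 11 of 21 genes tested were higher, 1 was lower and 9 were not called, with a median of 0.41. Ube2c, the ubiquitin-conjugating enzyme of the anaphase-promoting complex, stood at 5.07, 5.40 and 6.25 against 9.49, 9.52 and 9.07, a difference of 3.79 (SE 0.49). The phosphatase Cdkn3 rose by 3.68 (SE 0.51), the complex's inhibitor Fbxo5 by 1.7 (SE 0.27) and separase (Espl1), which cuts cohesin, by 1.44 (SE 0.26). The gene that went down was Pttg1, securin, the inhibitor of separase. It was named after its values were seen, stood at 11.14, 11.33 and 11.01 against 10.67, 10.69 and 10.78, and fell by 0.45 (SE 0.10, limma adjusted p = 0.0018). Cdc20, the activator of the complex, was singled out in the same way because its probe sets disagree: the brightest one gave 0.44 and was not called, and 2 others gave 3.62 and 3.64 and were called higher.

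Cytokinesis had the highest median of the 5 lists, 2.64, with 16 of 17 genes higher. Ect2, which starts the contractile ring, stood at 3.60, 3.15 and 4.15 at 0 d and at 7.43, 7.19 and 7.21 at 3 d, a difference of 3.64 (SE 0.36). Cep55, needed for the final cut between daughter cells, rose by 3.54 (SE 0.33), the kinesin Kif20a by 3.33 (SE 0.48) and Depdc1a by 3.73 (SE 0.55). Depdc1a lay at 2.51, 2.57 and 2.61 on the 0 d arrays, near their floor.

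The genes of DNA replication, which precede mitosis in the cycle, were also higher at 3 d, 34 of 43 against 10.2% of all genes. Their median difference was 1.07, and none was lower by limma (1 at an unadjusted p under 0.05), against 10.9% of all genes. Mcm5, a subunit of the replicative helicase, rose by 2.95 (SE 0.39) and Mcm6, of the same ring, by 2.79 (SE 0.36). Rrm2, the regulated subunit of the enzyme that makes deoxynucleotides, stood at 7.74, 6.55 and 7.68 against 10.23, 10.26 and 9.87. Cyclin D1 (Ccnd1), the entry signal of the cycle, rose by 1.87 (SE 0.44).

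Whether 3 d was the highest point was asked by setting it beside 2 d and 4 d. These comparisons share the 3 d arrays with the one above. Against 2 d, 0 of the 119 mitotic genes were called by limma in either direction (5 higher and 8 lower at an unadjusted p under 0.05), where 0.418% of all genes were called, and the median difference was -0.04. The mean of the 119 genes on the 2 d arrays was 7.88, 6.52 and 8.22, against 7.6, 7.58 and 7.39 at 3 d. Replicates 1 and 3 at 2 d thus lay above all 3 d arrays and replicate 2 far below them. Without 2 d replicate 2, 33 of the 119 genes were called lower at 3 d than at 2 d, and without 2 d replicate 3, 4 were called higher and 1 lower. The mean was highest at 2 d for 57 of the genes and at 3 d for 47. Ccnb2 was at 8.56, 5.53 and 10.58 and Mki67 at 10.03, 7.21 and 10.57 at 2 d, so that within each gene the 3 d arrays fell between the lowest and the highest 2 d array. The arrays at 3 d lay closer together than those at 2 d.

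Against 4 d the direction was plain: 66 of the 119 mitotic genes were lower at 4 d than at 3 d (3.23% of all genes were) and none was higher by limma (3.03% of all genes were), with 0 higher and 95 lower at an unadjusted p under 0.05. The median difference was -1.0. The count was 26 without 3 d replicate 1, 30 without 3 d replicate 2 and 41 without 4 d replicate 3. Of the DNA replication genes 40 of 43 had their highest mean at 2 d, and 4 were called lower at 3 d than at 2 d (E2f1, Pold1, Hells and Chaf1b, named after their values were seen, with 31 lower at an unadjusted p under 0.05). Their mean level was 8.69, 7.89 and 8.41 at 2 d and 7.85, 7.92 and 7.69 at 3 d. These 4 calls, like every call of the 3 d versus 2 d comparison, ended without 3 d replicate 1 and without 3 d replicate 2. Over all genes limma called 3 without 3 d replicate 3 and 2 without 2 d replicate 1. From 3 d to 4 d, 32 of the 43 fell.

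**Figure D2:**
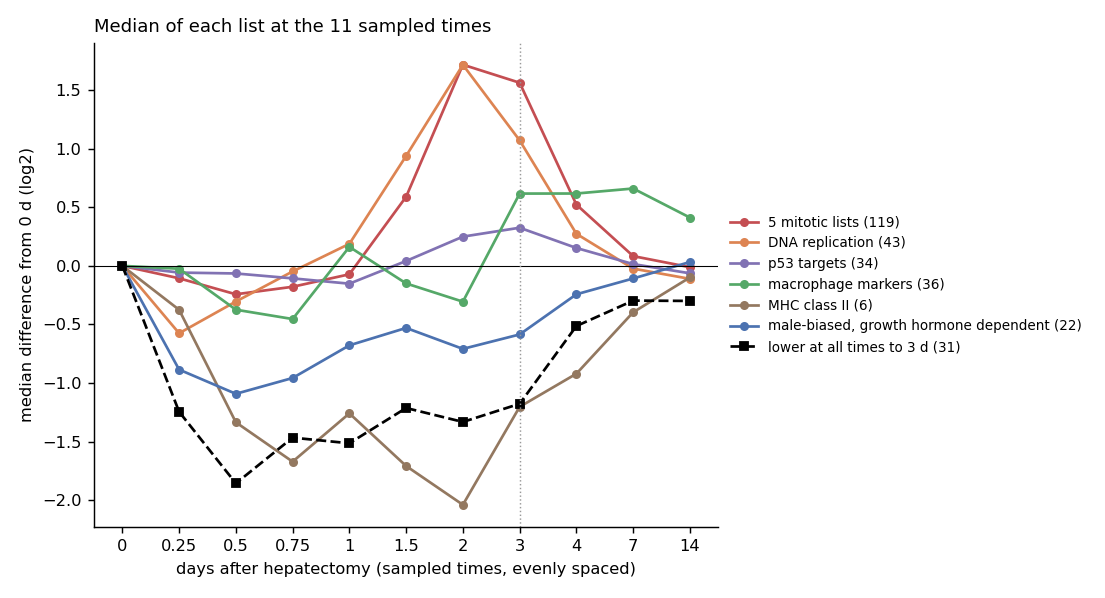
Median log2 difference from 0 d (vertical axis) at the 11 times (horizontal axis, in days), over the genes tested of each list; each line is a list. The median of the mitotic genes was 0.59 at 1.5 d, 1.72 at 2 d, 1.56 at 3 d and 0.52 at 4 d, and that of DNA replication genes 1.72 at 2 d and 1.07 at 3 d; all differences share the 0 d arrays.

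The transcription factor p53 stops the cell cycle or triggers cell death after DNA damage and other stress, chiefly through the genes it switches on. Of 34 of its targets tested, 15 were higher and 2 lower at 3 d, beside 10.2% and 10.9% of all genes, with a median difference of 0.33. Cdkn1a (p21), its target that inhibits cyclin-dependent kinases, stood at 6.15, 6.32 and 7.18 at 0 d and at 8.31, 7.84 and 8.20 at 3 d. The difference was 1.57 (SE 0.46, limma adjusted p = 0.015), and leaving out replicate 1 or 2 of 0 d, or replicate 1 of 3 d, ended the call, with adjusted p-values up to 0.072. Eda2r, a receptor gene, rose by 1.86 (SE 0.28) from 3.74, 3.50 and 3.72 to 6.0, 4.96 and 5.58. Ckap2 had the largest difference of the list, 2.74, and is a spindle protein that the mitotic lists hold too, as they do Gtse1, which rose by 0.46.

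Other targets rose by smaller amounts. Mdm2, which marks p53 for destruction, stood at 8.34, 8.48 and 8.58 against 9.17, 8.97 and 8.90, a rise of 0.55 (SE 0.11). Ppm1d, a phosphatase that shuts the response down, rose by 0.59 (SE 0.11), Ccng1 (cyclin G1) by 0.60 (SE 0.12) and Phlda3, an inhibitor of Akt, by 0.78 (SE 0.19). Apaf1, the scaffold of caspase activation, differed by 1.02 (limma adjusted p = 0.027, a call that ended when replicate 1 or 2 of either time was left out, with values up to 0.092), and Bbc3 (PUMA) by -0.10, which was not called. The stress genes Gadd45a at 0.02 and Sesn2 at -0.05 were not called either. The 2 that went down were Xpc, a sensor of DNA lesions, by 0.64 (SE 0.13), and the repressor Bcl6. Bcl6 stood at 9.49, 8.45 and 8.68 against 8.18, 5.81 and 6.15, a wide spread at 3 d. It lost its call in 5 of the 6 fits that leave out an array, all but the one without 3 d replicate 1, with adjusted p-values from 0.013 to 0.18.

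The gene of p53 itself, Trp53, had no probe set with a single symbol and was not tested. The targets Bax, Gdf15 and Fdxr had none either. Among the 10 genes tested in the list of p53 and its regulators, 1 was called, the checkpoint kinase gene Chek1. It went from 4.92, 5.05 and 5.63 to 7.72, 7.49 and 7.08. Its rise of 2.23 (SE 0.27) was followed by a fall of 1.8 from 3 d to 4 d. Atm, the kinase that answers double-strand breaks, differed by -0.02 and Mdm4 by 0.16, and neither was called. Of 3 other probe sets of Mdm4, 2 were called higher, and their highest difference was 0.50. Against 2 d none of the 34 targets was called by limma (0 at an unadjusted p under 0.05), and the list's median difference from 0 d was 0.25 at 2 d, 0.33 at 3 d and 0.15 at 4 d.

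**Figure D3:**
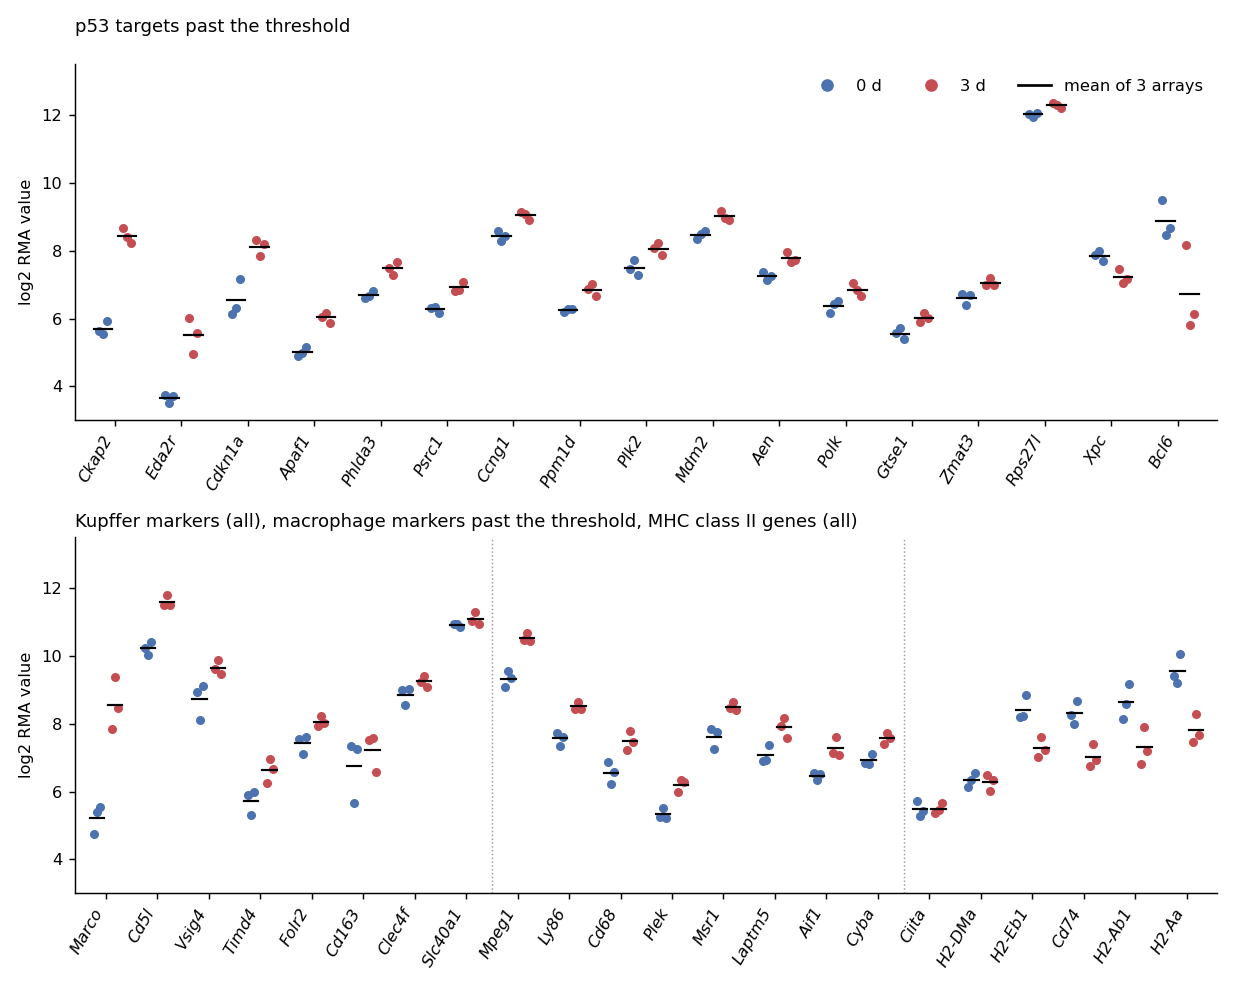
Log2 signal (vertical axis) of genes set along the horizontal axis, on the 3 arrays at 0 d (blue) and the 3 at 3 d (red), with bars at the mean of 3. The upper panel holds the 17 p53 targets called. The lower one holds the 8 Kupffer cell markers, the 8 macrophage markers called and the 6 MHC class II genes. Cdkn1a and Eda2r separate clearly, Marco shows the widest gap of the lower panel, and 4 of the 6 MHC class II genes lie lower at 3 d.

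Macrophage genes rose in part, and their counts stand beside 10.2% higher and 10.9% lower over all genes. Of 8 Kupffer cell markers tested, 4 were higher, with a median difference of 0.77, and the mean level of the 8 was 8.08, 7.64 and 8.23 at 0 d and 8.86, 9.32 and 8.84 at 3 d. Marco, a scavenger receptor, stood at 4.76, 5.39 and 5.55 against 7.83, 9.38 and 8.48, a difference of 3.33 (SE 0.63, limma adjusted p = 0.00041). Cd5l, a secreted macrophage protein, rose by 1.38 (SE 0.37) from 10.24, 10.02 and 10.42 to 11.49, 11.81 and 11.51. The complement receptor Vsig4 and the phosphatidylserine receptor Timd4 were called at 0.92 and 0.90, and each lost its call without 0 d replicate 1, 0 d replicate 2 or 3 d replicate 2 and also without 3 d replicate 1 (Vsig4) or 3 (Timd4), with adjusted p-values up to 0.22 and 0.20. Clec4f, a lectin that marks Kupffer cells, stood at 9.0, 8.54 and 9.02 against 9.24, 9.42 and 9.09, and its difference of 0.40 was not called. The list's count was 2 without 0 d replicate 1, 0 d replicate 2 or 3 d replicate 2.

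Of 36 general macrophage markers 8 were higher, against 10.2% of all genes, and 20 were higher at an unadjusted p under 0.05. The median was 0.62, and on 27 every 3 d array lay above every 0 d array, against 18.3% of all genes. Mpeg1, a pore-forming protein of macrophages, stood at 9.09, 9.56 and 9.35 against 10.47, 10.68 and 10.44, a rise of 1.2 (SE 0.27). Ly86, a partner of a Toll-like receptor relative, rose by 0.95 (SE 0.23) and the scavenger receptor Msr1 by 0.87 (SE 0.17). The count depended on single arrays, at 4 without 0 d replicate 1, 4 without 0 d replicate 2, 5 without 3 d replicate 1 and 3 without 3 d replicate 2, and it was 24 when the spread was taken from the 6 arrays alone. Against 2 d the median difference was 0.94, 3 of the 36 were called higher (0.205% of all genes were) and 32 were higher at an unadjusted p under 0.05. The 3 calls ended without 3 d replicate 1 and without 3 d replicate 2. The mean level of the list was 6.75, 6.85 and 7.09 at 2 d and 7.67, 7.95 and 7.70 at 3 d, without overlap.

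The next 3 d versus 0 d counts also stand beside 10.2% higher and 10.9% lower over all genes. Among 19 monocyte and lipid-handling macrophage genes 6 were higher, among them Plac8 by 1.54 (SE 0.34) and Lgals3 (galectin-3) by 1.44 (SE 0.30). In that list 1 was lower, Apoe, which hepatocytes make as well, by 0.24. Of 19 growth factor and chemokine genes 4 were higher (2 without 0 d replicate 2 or 3 d replicate 2), led by the chemokine Ccl9 with 10.28, 10.69 and 10.25 against 11.60, 12.13 and 11.66. The genes of MHC class II, with which macrophages, dendritic cells and B cells present antigen, went the other way, with 4 of 6 lower and none higher by limma (0 at an unadjusted p under 0.05). H2-Aa stood at 9.41, 9.21 and 10.05 against 7.47, 8.28 and 7.68 and fell by 1.75 (SE 0.34), and the invariant chain gene Cd74 fell by 1.28 (SE 0.25). Against 2 d, H2-Aa was higher at 3 d by 1.55 (limma adjusted p = 0.042), a call that ended, as all calls against 2 d did, without 3 d replicate 1 or 2.

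Markers of other cells stood as follows, beside 10.2% higher and 10.9% lower over all genes, and their part in the changes above was not tested. Neutrophil markers were higher for 3 of 11, with Prtn3 (proteinase 3 of granules) at 4.65, 5.41 and 5.14 against 9.28, 9.71 and 9.68. The calgranulin genes S100a8 and S100a9 were higher by 2.64 (SE 0.69) and 2.45 (SE 0.56). The other 8 were not called and the median difference of the 11 was 0.09. The mean level of the list, which holds these 3 large rises, went from between 5.00 and 5.23 to between 5.9 and 6.0. Of 9 lymphocyte markers none was called by limma (0 higher and 1 lower at an unadjusted p under 0.05), 9 of the 16 on the array lay under 5 on all 6 arrays, and the mean level of those tested lay between 5.26 and 5.35. Endothelial markers had 1 of 17 higher and 1 lower, with 0 higher and 3 lower without 0 d replicate 2, 2 higher and 0 lower without 0 d replicate 3, and 0 higher without 3 d replicate 1. Stellate cell and fibroblast markers had 1 of 17 higher (0 without 0 d replicate 1 and 4 without 0 d replicate 3), and cholangiocyte markers had none of 7 called by limma (0 at an unadjusted p under 0.05). Of 14 hepatocyte markers 3 were higher and 2 lower (1 lower without any of the arrays other than 0 d replicate 2), and their mean level lay between 13.11 and 13.19 on all 6 arrays.

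**Figure D4:**
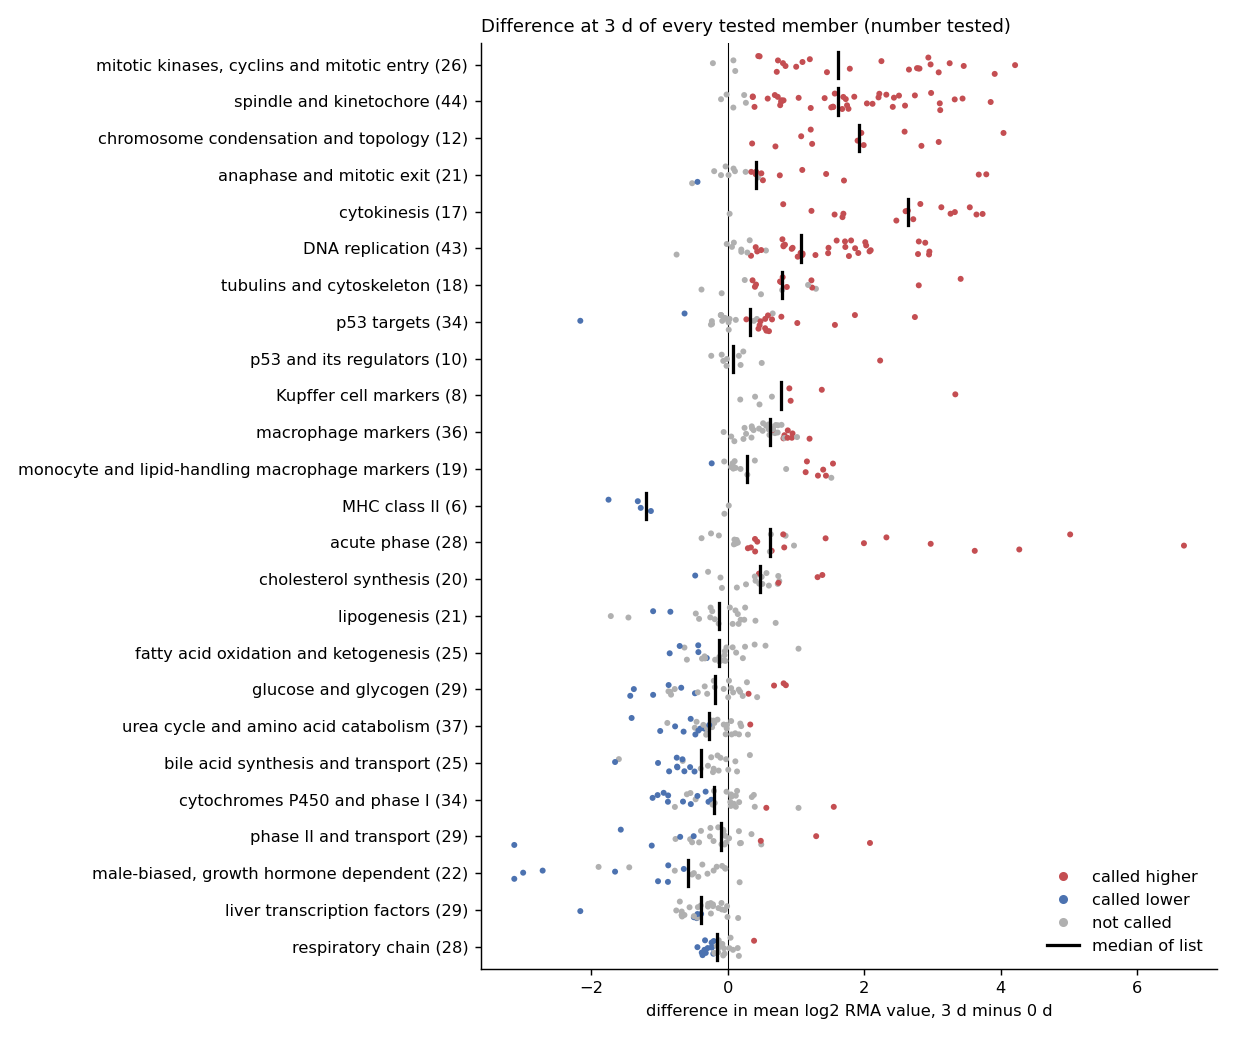
Log2 difference, 3 d minus 0 d (horizontal axis), of every gene tested in 25 lists (rows); red points were called higher, blue lower and grey not called, and the bar marks the median of the list. The mitotic lists lie to the right of 0 with medians of 0.41 to 2.64, and the MHC class II, bile acid and male-biased lists lie to the left with medians of -1.20, -0.40 and -0.59.

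Metabolic genes were lower in part and by smaller amounts, and their counts stand beside 10.9% lower and 10.2% higher over all genes. Of 25 genes of bile acid synthesis and transport, the pathway by which the liver turns cholesterol into bile, 10 were lower and none higher by limma (0 at an unadjusted p under 0.05), with a median of -0.40. Slco1a1, a bile acid and organic anion carrier of the blood side, stood at 11.84, 11.40 and 11.84 against 10.12, 9.58 and 10.43 and fell by 1.65 (SE 0.25). Cyp27a1, which starts the alternative route of synthesis, fell by 0.86 (SE 0.13) and Baat, which joins bile acids to amino acids, by 0.75 (SE 0.14). Slc27a5 fell by 0.64 (SE 0.08) and the uptake carrier Slc10a1 by 0.74 (SE 0.17). Cyp7a1, the rate-limiting enzyme of the main route, was not called at 0.01, with 12.13, 10.88 and 10.98 against 12.29, 11.09 and 10.63. Cyp8b1 differed by -1.60 and was not called (limma adjusted p = 0.087).

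In the urea cycle and amino acid breakdown 11 of 37 were lower and 1 higher, Nags, whose call was lost in each of the 6 fits that leave out an array (limma adjusted p from 0.057 to 0.15). Prodh, which opens proline breakdown, stood at 11.13, 10.97 and 11.19 against 9.79, 9.45 and 9.81 and fell by 1.41 (SE 0.17). Within the urea cycle itself Asl fell by 0.99 (SE 0.18) and Otc by 0.55 (SE 0.10), whereas Cps1 at 0.11, Ass1 at 0.18 and Arg1 at -0.25 were not called. The count of lower genes was 6 without 0 d replicate 2 and 6 without 3 d replicate 2. Among 34 cytochromes P450 and phase I genes 11 were lower and 2 higher, with Cyp2c54 lower by a difference of -1.10 (SE 0.27) and Cyp2d22 by one of -1.03 (SE 0.11). The highest of the list, Cyp2c55, differed by 1.55 and lost its call without 3 d replicate 2 (limma adjusted p = 0.094). The counts of lower P450 genes were 7 without 0 d replicate 1, 3 d replicate 1 or 3 d replicate 2.

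Of 29 phase II and transport genes 5 were lower and 3 higher (1 higher without 3 d replicate 2), beside 10.9% and 10.2% of all genes. The count of higher genes was near the general share. Ugt2b38, a glucuronosyltransferase, had the largest fall of all genes tested, from 10.09, 9.84 and 8.87 to 6.48, 6.44 and 6.49, a difference of -3.13 (SE 0.46, limma adjusted p = 3.1e-05), or 8.76-fold. The export pump Abcc3 fell by 1.57 (SE 0.17), while the glutathione transferase gene Gstm2 rose by 1.29 (SE 0.23). Genes of the Ugt2b, Cyp2c, Cyp2d, Cyp4a and Gstm families have near-identical copies, and how far their probes tell the copies apart was not tested.

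Of 29 glucose and glycogen genes 6 were lower and 4 higher, beside 10.9% and 10.2% of all genes, so that the count of higher genes was near the general share. Slc37a4, which carries glucose 6-phosphate for glucose release, stood at 11.74, 10.97 and 10.72 against 9.72, 9.71 and 9.71, and the liver glycogen synthase gene Gys2 at 10.98, 11.08 and 9.96 against 9.21, 9.43 and 9.25. The liver pyruvate kinase gene Pklr fell by 1.10 (SE 0.26). In contrast lactate dehydrogenase A (Ldha) rose by 0.85 (SE 0.12) and Pgd of the pentose phosphate pathway by 0.82 (SE 0.20). Fatty acid oxidation and ketogenesis had 5 of 25 lower and none higher by limma (1 at an unadjusted p under 0.05), such as the peroxisomal thiolase Acaa1b by 0.85 (SE 0.21). Lipogenesis had 2 of 21 lower, a share near the 10.9% of all genes, among them Dgat2 of triglyceride synthesis by 0.84 (SE 0.19). Cholesterol synthesis leaned up, with 4 of 20 higher, 1 lower and a median of 0.48. The calls of Sqle and Hmgcs1, the highest of that list at 1.38 and 1.31, were lost in 6 and 5 of the 6 fits that leave out an array, with adjusted p-values up to 0.14 and 0.19, and the list's count was 1 without 0 d replicate 1, 3 d replicate 2 or 3 d replicate 3 and 2 without 0 d replicate 2 or 3 d replicate 1. It was 11 when the spread was taken from the 6 arrays alone.

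Genes that depend on pulses of growth hormone and run higher in males had 8 of 22 lower and none higher by limma (0 at an unadjusted p under 0.05), with a median of -0.59. The steroid enzyme gene Hsd3b5 stood at 12.10, 12.11 and 11.98 against 8.77, 8.86 and 9.57, an 8.0-fold fall, and Cyp4a12a, a fatty acid hydroxylase, at 12.59, 12.28 and 12.33 against 9.54, 9.36 and 10.15. Of 29 liver transcription factors 5 were lower, Bcl6 as above and Creb3l3, Hlf, Rora and Rxra by 0.50, 0.46, 0.45 and 0.39, and none of the 5 kept its call in all 6 fits that leave out an array. The count was 2 without 0 d replicate 1 or 3 d replicate 2, 1 without 0 d replicate 2 or 3 d replicate 3, 3 without 3 d replicate 1, and 9 with the spread from the 6 arrays alone. Hnf4a, the factor that defines hepatocytes, stood at 11.88, 11.90 and 12.09 against 11.87, 11.78 and 11.94 and was not called, and 1 of its other probe sets was called higher at 0.58. The respiratory chain had 12 of 28 lower and 1 higher, all by small amounts: Sdhb, an iron-sulfur subunit of complex II, fell by 0.45 (SE 0.09), and cytochrome c (Cycs) differed by 0.38, a call that ended without 0 d replicate 2 or 3 d replicate 1 (limma adjusted p up to 0.11). With the spread from the 6 arrays alone 4 of the 28 were lower.

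A set of genes had been low since shortly after the operation. Still suppressed was defined as lower at 3 d by 2-fold or more and called lower at each of the 6 earlier times, which 31 genes (0.227%) met. Because the rule used these differences, they are a description, and all share the 0 d arrays. The samples at 0.25 d, 0.5 d, 0.75 d and 1.5 d carry a separate run of sample numbers from 0 d and the other times. Any difference in handling between the runs cannot be told apart from time in these calls. The 12 lowest at 3 d were Ugt2b38, Car1, Macrod1, Slco1a1, Cnmd, Afmid, Prodh, Ces1e, Col27a1, Cyp4f13, Hsd17b6 and Sult2a8. They include enzymes of drug and steroid metabolism (Ugt2b38, Ces1e, Cyp4f13, Hsd17b6, Sult2a8), of amino acid breakdown (Prodh and Afmid, which acts on a tryptophan product) and the carrier Slco1a1. Hsd17b6 lost its call at 3 d without replicate 1 or 2 of 0 d, or replicate 1 or 3 of 3 d. Its other probe set gave 0.035 and was not called. Macrod1, which removes ADP-ribose from proteins, stood at 9.55, 9.27 and 9.47 at 0 d and at 7.81, 7.10 and 7.88 at 3 d, its lowest mean of the series.

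What followed 3 d was not part of the rule, but the rule picked genes for low values on the 3 d arrays, which favours a rise afterwards. The median difference of the 31 genes from 0 d was -1.18 at 3 d, -0.51 at 4 d, -0.30 at 7 d and -0.30 at 14 d, and at 14 d every array lay below every 0 d array for 5 of them, down from 20 at 4 d. Ugt2b38 had means of 9.60 at 0 d, 6.47 at 3 d, 7.55 at 4 d, 8.70 at 7 d and 9.68 at 14 d. Prodh stood higher by 1.04 at 4 d than at 3 d, a difference that reuses the 3 d arrays by which it was picked. Car1 is not a hepatocyte gene but a carbonic anhydrase of red cells, and 2 more of the 31, Alas2 of heme synthesis and the erythroid factor Klf1, are markers of the same lineage. The erythroid list had 3 of 7 lower and 1 higher at 3 d, beside 10.9% and 10.2% of all genes. The mean level of that list was 7.22, 7.27 and 7.11 at 0 d and 6.78, 6.70 and 6.81 at 3 d. Without 0 d replicate 1, 27 genes met the rule and 20 of the 31 were among them.

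**Figure D5:**
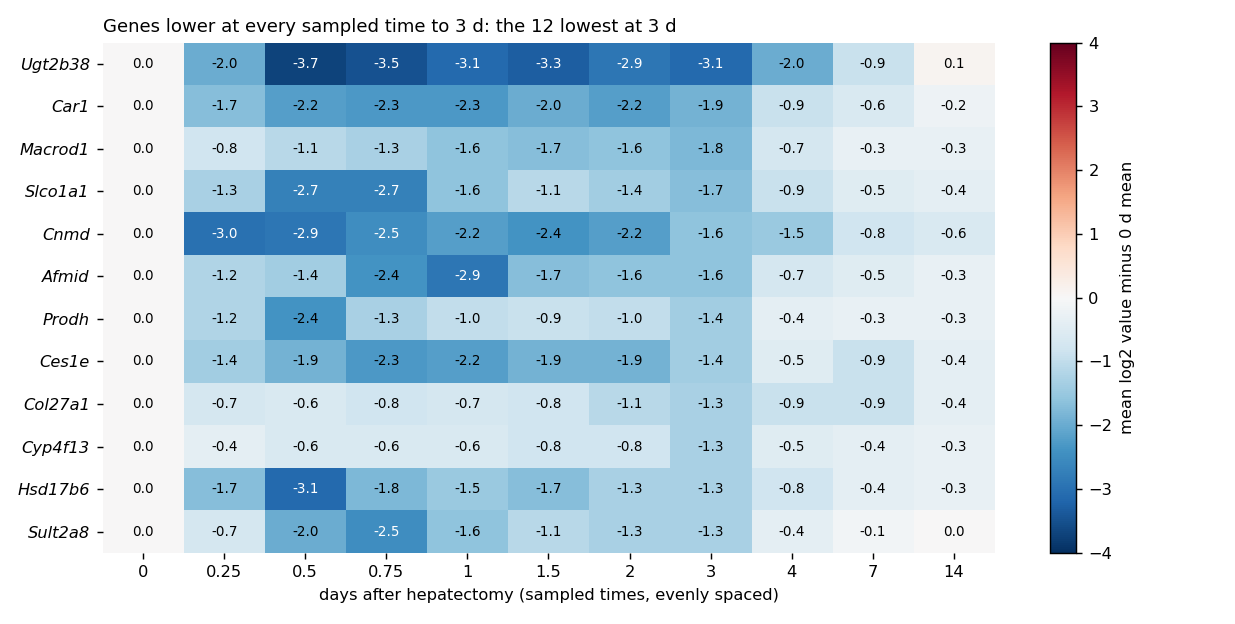
Heat map of the mean log2 difference from 0 d, over 3 arrays, of the 12 still suppressed genes with the lowest difference at 3 d (rows) at the 11 times in days (columns); the number in each cell is the difference. All cells from 0.25 d to 3 d are negative by the rule, and Ugt2b38 returns from -3.13 at 3 d to near 0 at 14 d.

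Of the acute phase, the set of blood proteins the liver makes in inflammation, 16 of 28 genes were higher and none lower by limma (0 at an unadjusted p under 0.05). Over all genes 10.2% were higher and 10.9% lower. Lcn2, which binds bacterial iron carriers, had the largest difference of all genes tested, from 5.84, 4.64 and 6.27 to 12.44, 12.60 and 11.76, or 103-fold. Serum amyloid A2 (Saa2) stood at 8.73, 8.38 and 8.68 against 13.99, 13.67 and 13.19, and the orosomucoid gene Orm2 rose by 4.27 (SE 0.77). Saa1 and Saa2 are near-identical copies, as are the Orm genes, and their probes may not tell them apart. Against 2 d none of the 28 was called by limma (0 higher and 1 lower at an unadjusted p under 0.05).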

How the data were processed

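Total RNA of mouse liver, 5 µg per sample, was labelled with biotin and hybridized, per the labels' protocols. Per the submitters' processing notes the authors deposited log2 values made with RMA, whose version is not given in the sources used here. RMA makes the distributions of the arrays alike, which removes a shift shared by most genes and compresses differences between low signals.

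Of 45101 probe sets the platform annotation gave 34945 a single symbol; 932 had several, 9160 were unnamed and 64 were controls. The brightest probe set stood for each gene, and 4551 genes missed the filter. The linear model of limma 3.58.1, run in R 4.3.3, had a mean per time and used all 33 arrays (22 residual and 3.69 prior degrees of freedom); p-values are two-sided. On simulated data for this comparison (200 of 13642 genes changed), 60% of log2 changes of 0.5, 92% of rises of 1 and 100% of changes of 2 were recovered, with 6 false calls. The simulation drew independent normal noise with the spreads of the fit and changed fewer genes than were called here. Its rates need not hold for the real arrays.

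The members and the 37 lists (839 genes, 731 tested, 108 not analysed here) were chosen with earlier results of these data known; no set test was run. Named genes were drawn from the 12 highest and 12 lowest genes called by 2-fold or more with separate groups, up to 6 called members per list, the 12 lowest still suppressed genes, and any member of the p53, p53 regulator, Kupffer, mitotic kinase, urea cycle, bile acid and liver transcription factor lists. Outside that rule Pttg1, Cdc20, E2f1, Pold1, Hells, Chaf1b, Adipoq, Alb and Apoe were named after their values were seen. Same-numbered 0 d and 3 d arrays deviated from their group means with correlations of -0.033, -0.007 and -0.086. Differently numbered arrays gave -0.061 to 0.087, so these values show no pairing by number but cannot exclude one. The main fit treated the samples as unpaired. Alternatives were the filter, the mean of probe sets, the normalization, the prior, array weights, the replicate block, only the arrays compared, and each array left out. Python 3.11.15 and matplotlib 3.10.9 were used for the plots.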

Additional observations from a re-analysis of the deposited data

Results flagged for a closer look

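Outside the named genes, 4290 probe sets without a single gene symbol reached the same filter and were tested by the same limma fit. At 3 d 40 of them were called higher by 2-fold or more and 18 lower by 2-fold or more, where 2.24% and 0.601% of the genes tested were. In all 223 were higher and 209 lower (10.1% called), a smaller share than the 21.2% of the genes tested. They were flagged because they rose above the 0 d arrays in data that no comparison of the report uses, and they are not named here.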

How the results depend on the processing

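The number of arrays per time, 3, limits the precision, and signals near the floor hide small changes. Counts over all genes, over the mitotic lists and of the still suppressed genes stayed within 1.5 times of those reported under the settings not named here. With only the 6 arrays compared, lists not given so above had 4 lipogenesis genes lower and 2 higher, 0 hepatocyte markers and 2 endothelial markers lower, 2 stellate cell markers, 2 periportal genes, 2 p53 regulators and 4 P450 genes higher, and 0 respiratory chain genes higher. Leaving out each array in turn, genes called at 3 d versus 0 d ranged from 1893 (without 3 d replicate 2) to 2658, genes called higher at 3 d versus 0 d from 890 to 1261, and genes called lower at 3 d versus 0 d from 1002 to 1397. Genes called at 3 d versus 2 d numbered 37 with a filter at a log2 value of 7 and 1112 with array weights, and 0 to 223 with an array left out. Genes called at 4 d versus 3 d numbered 2012 with array weights and 275 to 683 with an array left out. The counts of mitotic genes under alternatives, and those of the still suppressed genes, were added after seeing the data. Members of the 5 mitotic lists higher at 3 d versus 0 d numbered 62 with the filter at 7, where fewer genes are tested, and 91 to 97 with an array left out; those lower at 3 d versus 0 d numbered 2 with array weights and 2 with only the 6 arrays compared. Members of the 5 mitotic lists higher at 3 d versus 2 d numbered 2 with array weights and 0 to 4 with an array left out, and those lower at 3 d versus 2 d 1 with quantile normalization, 1 with a shift to a common median, 18 with array weights and 0 to 33 with an array left out. Members of the 5 mitotic lists lower at 4 d versus 3 d ranged from 26 to 60. Still suppressed genes numbered 26 with the mean of probe sets and 27 to 41 with an array left out, which kept 20 to 29 of the 31. With the replicate number as a block, genes called at 3 d versus 0 d were 2895, and the mitotic counts were 100 higher at 3 d versus 0 d and 67 lower at 4 d versus 3 d. At 3 d versus 0 d, Cdc45 and Emp1, not called, changed sign with the mean of their probe sets, to 0.487 and 0.641. The cause of these changes was not tested.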

Other observations

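Genes marking the zones of the liver lobule did not shift together at 3 d. Of 22 pericentral and Wnt target genes 2 were higher and 3 lower than at 0 d, and of 13 periportal genes 1 was higher and 2 lower (limma, 10.2% of all genes higher and 10.9% lower). Without replicate 1 or 2 of 0 d, or replicate 1 of 3 d, 1 pericentral gene was higher, and without 0 d replicate 1 or 3 d replicate 2, 1 periportal gene was lower. Cyp2e1, a pericentral alcohol-oxidizing P450, fell by 0.28 (SE 0.06), and Cyp2f2, its periportal counterpart in position, fell by 0.66 (SE 0.16) from 13.78, 13.59 and 13.54 to values between 12.91 and 13.02. Ctsc, a lysosomal protease of the periportal list that immune cells also make, rose by 1.63 (SE 0.31). Of 9 genes that run higher in females 1 was called higher, Prom1, with overlapping groups at 5.49, 5.17 and 6.96 against 6.73, 9.10 and 7.24; leaving out replicate 1 or 2 of 0 d, or 2 or 3 of 3 d, ended its call (adjusted p up to 0.30). None of 5 adipocyte markers was called by limma (0 at an unadjusted p under 0.05). Among the 12 largest falls was Hamp2, a relative of the iron hormone hepcidin, at 11.28, 12.11 and 11.99 against 10.51, 9.10 and 10.65, a difference of -1.71 (SE 0.40). Others of the 12 largest falls were Serpina4-ps1 by 2.50 (SE 0.87), Hectd2os by 1.74 (SE 0.51), Gpcpd1 by 1.72 (SE 0.47) and Angptl4, a secreted inhibitor of lipoprotein lipase, by 1.69 (SE 0.56). Each of these 4 lost its call with an array left out: Serpina4-ps1 without replicate 2 or 3 of 0 d or 1 of 3 d, Hectd2os without 0 d replicate 1 or 3 d replicate 2, Gpcpd1 without 0 d replicate 1 or 2, and Angptl4 without any array other than 0 d replicate 2. Among the 12 largest rises D17H6S56E-5 stood at 6.37, 6.37 and 7.28 against 10.36, 10.39 and 10.42.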
